A study of Mus musculus with 6 samples.

Results

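Eosinophils, basophils and mast cells are granulocytes and tissue cells of allergy and of defence against parasites, and 10 genes that mark them were chosen by name: Prg2, Prg3, Epx, Cpa3, Mcpt8, Ms4a2, Fcer1a, Hdc, Gzmb and Il1rl1. Every probe set that the platform annotation gives exactly 1 gene symbol, that of a member, was read. Of the 10 genes, 9 had such a probe set, 11 probe sets in all, among 18193 genes with 34945 probe sets of 1 symbol. Hdc and Ms4a2 had 2 probe sets each, and Il1rl1, the receptor for interleukin-33, is not analysed here.

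The arrays compared high-ROS CMP, 3 arrays, with low-ROS CMP, 3 arrays. CMP are common myeloid progenitors, marrow cells that give rise to granulocytes, monocytes, megakaryocytes and red cells, and here they came from the marrow of C57BL6 mice with no further treatment named. The design text places the comparison at the step by which CMP become megakaryocyte and red cell progenitors. The H2-DCFDA dye, which fluoresces once oxidised, marked reactive oxygen species (ROS), and the highest and lowest stained cells, each 15% to 20% of all CMP, were sorted. Age and pooling of the animals are not given in the labels, nor is the source of the 3 replicates of a group, so the p-values below reflect variation among the 6 arrays and part or all of it may be technical.

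Eosinophil granules hold major basic protein and eosinophil peroxidase, which are toxic to parasites and are made in large amounts while the cell matures in the marrow. Basophils and mast cells store histamine and proteases, bind IgE through a receptor of several chains, and release their granules when an antigen crosslinks it. In mouse marrow all 3 lineages pass through progenitors that use the transcription factors GATA1 and GATA2, as megakaryocytes and red cells do, and a CMP gate can hold such progenitors.

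Promoter windows are shown for Prg3 and Epx, eosinophil genes that ranked the 6 arrays in the same order, for Cpa3, which ranked them differently, and for the genes of the beta and alpha chains of the IgE receptor. Each is the 250 bases before a listed start site of the gene, 5′ to 3′ in the direction of the gene (GRCm38.p6). Among those printed, only the Epx window ends where the RefSeq gene begins, and the others reach into the gene. Capitals mark matches on either strand to AGATAA or TGATAA, letters that GATA factors bind, to CATGTG or CACGTG, the E-box letters that Mitf binds, and to TTGCAA, part of the letters that C/EBP factors bind. The windows lie at chr2:84987965-84988214 on the plus strand, chr11:87875537-87875786 on the minus strand, chr3:20242182-20242431 on the minus strand, chr19:11623720-11623969 on the minus strand and chr1:173227230-173227479 on the minus strand, in the order below.
Prg3: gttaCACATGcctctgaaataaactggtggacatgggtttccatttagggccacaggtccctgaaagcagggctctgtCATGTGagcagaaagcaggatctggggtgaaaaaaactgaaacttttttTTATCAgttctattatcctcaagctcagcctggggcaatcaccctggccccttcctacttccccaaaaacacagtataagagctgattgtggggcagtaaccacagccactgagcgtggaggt
Epx: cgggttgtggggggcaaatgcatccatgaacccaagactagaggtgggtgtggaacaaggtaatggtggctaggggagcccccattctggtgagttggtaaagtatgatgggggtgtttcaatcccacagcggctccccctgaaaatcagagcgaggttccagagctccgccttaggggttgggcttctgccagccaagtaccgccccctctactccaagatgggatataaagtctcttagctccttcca
Cpa3: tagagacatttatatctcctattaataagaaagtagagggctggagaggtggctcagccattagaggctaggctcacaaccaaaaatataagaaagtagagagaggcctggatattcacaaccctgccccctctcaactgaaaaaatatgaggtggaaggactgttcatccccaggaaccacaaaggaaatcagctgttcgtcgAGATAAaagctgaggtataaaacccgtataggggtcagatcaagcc
Ms4a2: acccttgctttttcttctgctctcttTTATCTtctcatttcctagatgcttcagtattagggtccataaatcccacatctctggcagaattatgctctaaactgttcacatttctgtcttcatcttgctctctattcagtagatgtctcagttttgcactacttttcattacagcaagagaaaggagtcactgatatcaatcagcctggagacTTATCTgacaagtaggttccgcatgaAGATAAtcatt
Fcer1a: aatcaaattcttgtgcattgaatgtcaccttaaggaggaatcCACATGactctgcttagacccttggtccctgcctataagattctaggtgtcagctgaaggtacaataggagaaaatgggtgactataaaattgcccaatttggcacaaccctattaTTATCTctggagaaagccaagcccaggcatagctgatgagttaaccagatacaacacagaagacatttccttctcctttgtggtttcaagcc

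Of the 8 analysed members with a window, 4 held AGATAA or TGATAA: Prg3, Cpa3, Ms4a2 and Fcer1a. Of all 32851 windows of this length, 16.6% held one of them. The Ms4a2 window held 3 AGATAA matches, at 224 to 219, 37 to 32 and 11 to 6 bases before the listed start site. The RefSeq gene reaches past that site, and the matches at 37 to 32 and 11 to 6 bases lie inside it. Cpa3 held 1 at 46 to 41 bases, Fcer1a 1 at 92 to 87 bases, and Prg3 a TGATAA match at 123 to 118 bases. CATGTG stood in the windows of Prg3 and Fcer1a and in 12.3% of all windows. The windows of Epx, Mcpt8, Gzmb and Hdc held none of the letters searched. Those of Mcpt8 and Hdc lie wholly inside the RefSeq bounds of their genes. A match is a description of the letters only.

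None of the 11 member probe sets passed the test between high-ROS and low-ROS CMP (0 higher and 0 lower, limma, adjusted p under 0.05), where over all 34945 probe sets 0.0200% were lower, 7 probe sets of 5 genes, and 0 were higher. Of the 11, 0 had an unadjusted p under 0.05, against 7.31% of all probe sets, 3.72% higher and 3.59% lower. The means of 8 member probe sets were lower and of 3 higher in high-ROS CMP, and 48.7% of all probe sets were lower. With each gene read by its brightest probe set, the median log2 fold change of the 9 members was -0.11, against 0.02 over all genes. That median was -0.03 when high-ROS replicate 3, on which Prg2, Prg3 and Epx were lowest, was left out. The interval of the difference lay within 2-fold either way for 11 of 11 probe sets and within 1.5-fold for 8. In such bulk samples, fewer cells of a type and less RNA per cell cannot be told apart.

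**Figure D1:**
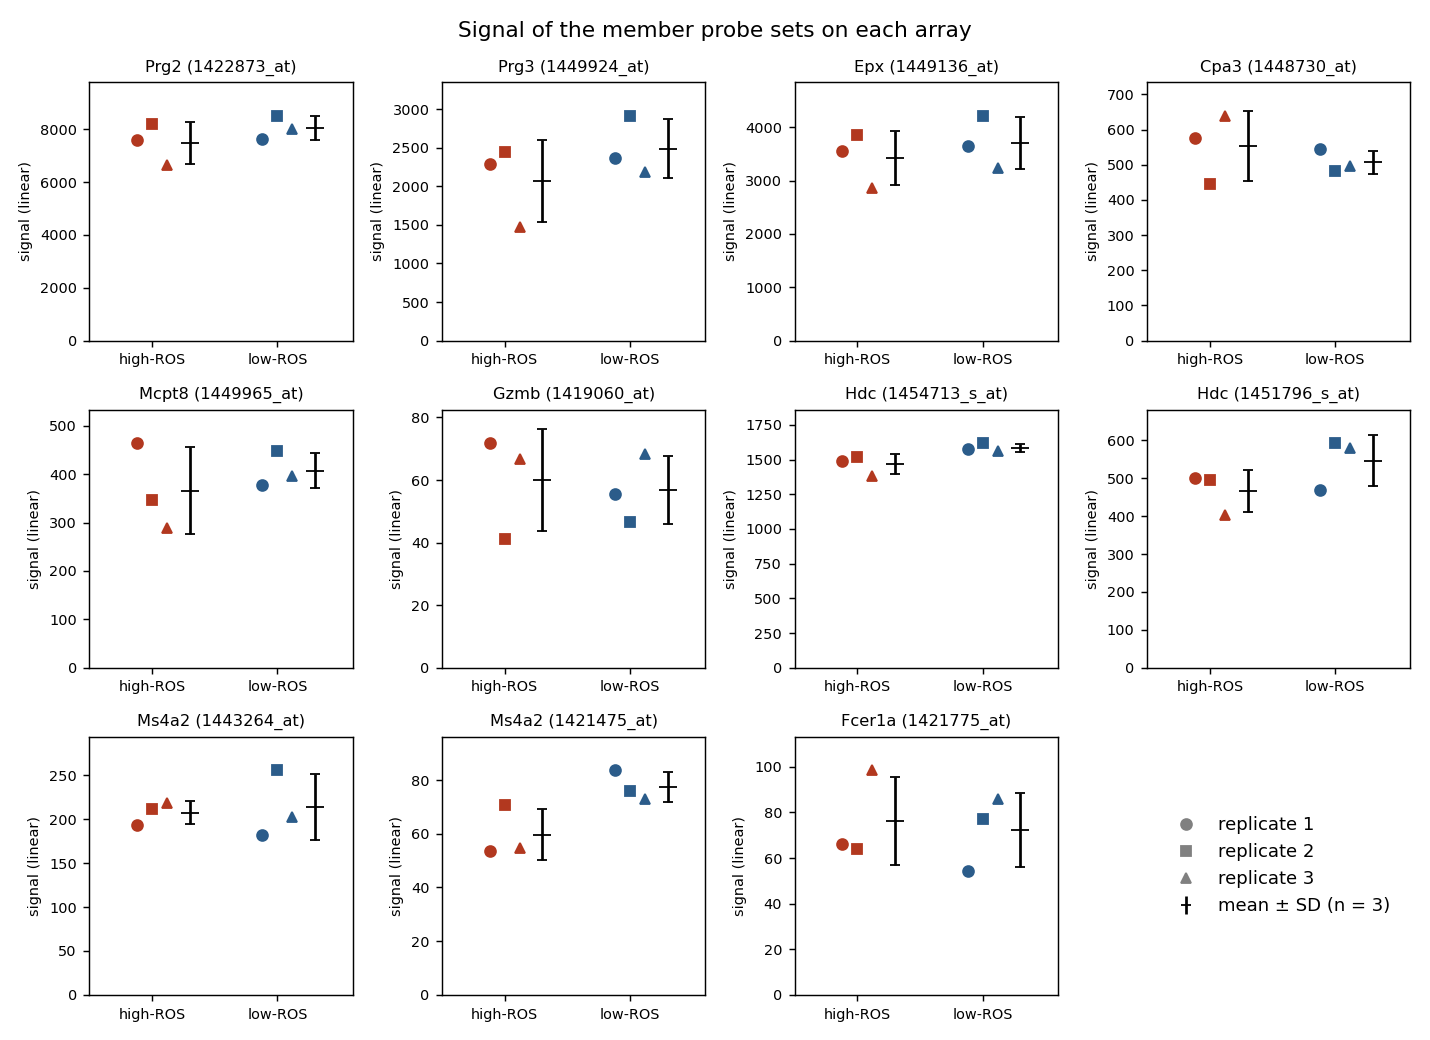
Signal of each of the 11 member probe sets on each array (linear scale from 0), with high-ROS CMP on the left and low-ROS CMP on the right of each panel. Symbols are replicates, and bars are the mean and SD of 3 arrays. The groups overlap in every panel except Hdc (1454713_s_at) and Ms4a2 (1421475_at), and high-ROS replicate 3 is the lowest array for 6 of the 11 probe sets.

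The eosinophil granule genes were measured far above the median signal of 41.3 on every array. Prg2, which encodes eosinophil major basic protein, had signals of 7584, 8194 and 6638 in high-ROS replicates 1 to 3, against 7612, 8501 and 8024 in low-ROS replicates 1 to 3. The groups overlapped, with high-ROS replicate 3 lowest and low-ROS replicate 2 highest. The means were 7472 ± 784 in high-ROS and 8046 ± 445 in low-ROS CMP (SD, n = 3 each). The log2 fold change was -0.11 (SE 0.0901, limma adjusted p = 0.805), a ratio of 0.926 with a 95% interval of 0.807 to 1.06.

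Prg3, a close relative of Prg2 that encodes a further form of major basic protein, had 2296, 2449 and 1469 in high-ROS replicates 1 to 3, against 2373, 2914 and 2189 in low-ROS replicates 1 to 3. High-ROS replicate 3 stood well below the other 5 arrays, and replicates 1 and 2 of high-ROS CMP lay inside the low-ROS range. The log2 fold change was -0.29 (SE 0.181, limma adjusted p = 0.745), a ratio of 0.819 with an interval of 0.620 to 1.08.

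Epx, eosinophil peroxidase, had 3561, 3847 and 2856 in high-ROS replicates 1 to 3, against 3659, 4212 and 3233 in low-ROS replicates 1 to 3. The ranges overlapped over most of their length. The means were 3421 ± 510.1 in high-ROS and 3701 ± 491 in low-ROS CMP (SD, n = 3 each), with a log2 fold change of -0.12 (SE 0.129, limma adjusted p = 0.867) and an interval of 0.757 to 1.13 for the ratio.

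**Figure D2:**
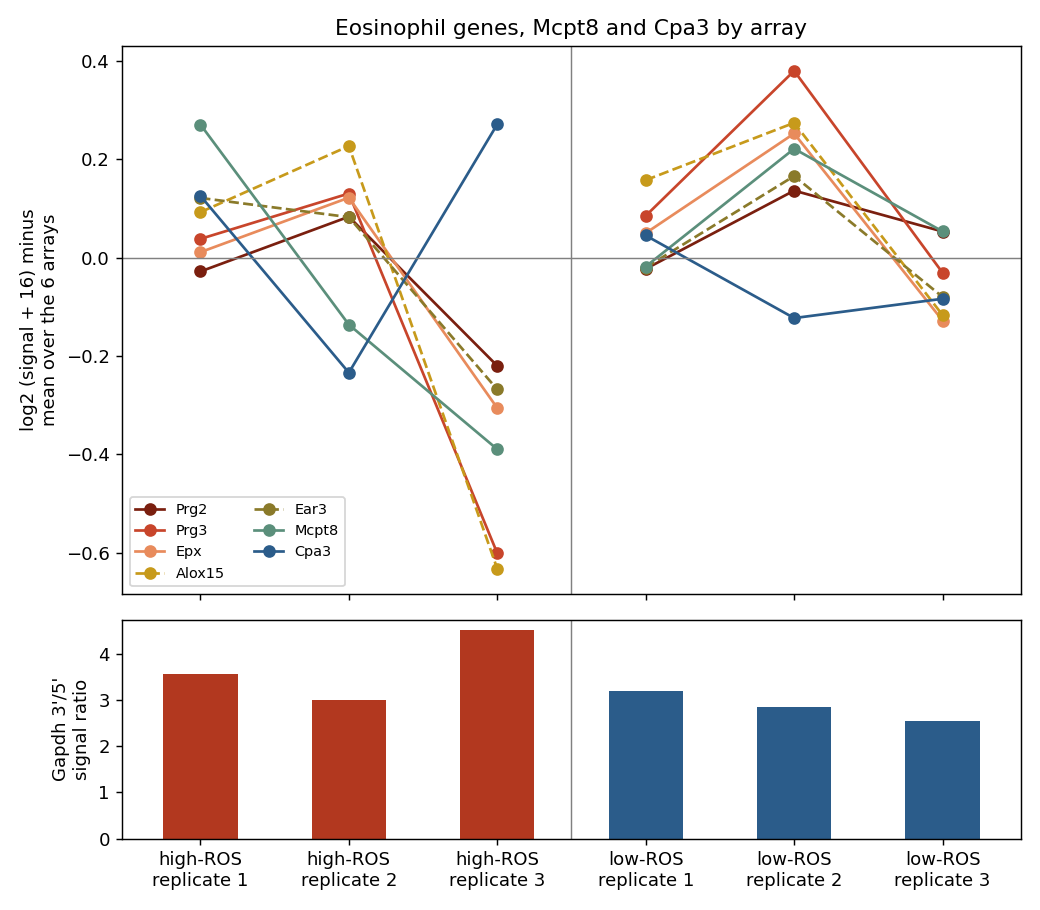
Upper panel: log2(signal + 16) of Prg2, Prg3, Epx, Mcpt8 and Cpa3 and of the eosinophil genes Alox15 and Ear3 on each array, minus the gene's mean over the 6 arrays. Lines only join the points of 1 gene within a group. Lower panel: ratio of 3′ to 5′ signal of the Gapdh control probe sets. Prg2, Prg3, Epx, Alox15 and Ear3 are lowest on high-ROS replicate 3, which has the highest ratio, 4.53, and Cpa3 is highest there. Alox15 and Ear3 are the 2 of 7 further eosinophil genes lowest on that array, and the others are not drawn.

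Some eosinophil genes gave the same order of arrays and others did not. Prg3 and Epx ranked the 6 arrays alike, with low-ROS replicate 2 highest, then high-ROS replicate 2, and high-ROS replicate 3 lowest. Alox15, a lipoxygenase that mouse eosinophils make, gave that same order, at 2006, 2203 and 1207 in high-ROS and 2099, 2277 and 1733 in low-ROS replicates 1 to 3. Ear3, one of the eosinophil ribonucleases, had 2552, 2483 and 1944 in high-ROS and 2312, 2632 and 2217 in low-ROS replicates 1 to 3, and its probe set may read transcripts of its close relatives. Of the 7 further eosinophil genes measured, these 2 (28.6%) were lowest on high-ROS replicate 3. The other 5, Siglecf, Ccr3, Il5ra, Trib1 and Xbp1, were lowest on other arrays.

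High-ROS replicate 3 was the lowest array for Prg2, Prg3, Epx, Mcpt8 and both Hdc probe sets, 6 of 11 probe sets. By brightest probe set it was lowest for 3 of 3 eosinophil granule members. So it was for 2 of 4 mast cell and basophil granule members, 0 of 2 receptor members and 22.5% of all genes. That array also had the highest Gapdh ratio of 3′ to 5′ signal, a measure of RNA integrity and labelling, at 4.53, against 2.54 to 3.57 on the other 5 arrays. Without it the log2 fold changes were -0.03 for Prg2 (SE 0.0655), -0.06 for Prg3 (SE 0.117) and 0.01 for Epx (SE 0.105). With the Gapdh ratio as a covariate they were 0.05, 0.03 and 0.04.

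Late neutrophil markers were high on all arrays. Of the 9 measured, 9, among them the granule gene Ltf and the calcium-binding S100a8 and S100a9, lay above the median signal, and S100a8 and S100a9 ranged from 12421 to 13145 in high-ROS and from 12273 to 13258 in low-ROS CMP. Their summed signal was 51713 to 55188 in high-ROS and 53175 to 58311 in low-ROS CMP. Of the 9, 6 were lowest on high-ROS replicate 3, as Prg2, Prg3 and Epx were. Cd177, a neutrophil surface protein, had 2328, 2281 and 1466 in high-ROS and 2419, 2739 and 2929 in low-ROS replicates 1 to 3, with groups that did not overlap (log2 fold change -0.44, SE 0.165, limma adjusted p = 0.655). Without that array it was -0.22, and with the Gapdh covariate -0.06. Cxcr2, a chemokine receptor of mature neutrophils, and Mmp8, a granule collagenase, had log2 fold changes of -0.37 (SE 0.189) and -0.30 (SE 0.181). Without high-ROS replicate 3 these were -0.16 and -0.05, and with the Gapdh covariate both were 0.05. The 9 genes had lower means in high-ROS CMP in 9 of 9, with a median of -0.13, and 46.0% of all genes by their brightest probe set were lower. Of B cell markers 7 of 7 and of cytotoxic T and NK cell markers 9 of 11 lay above the median signal. B cell markers summed to 2475 to 3277 in high-ROS and 2532 to 3501 in low-ROS CMP. The cytotoxic markers summed to 3244 to 3657 in high-ROS and 3471 to 3978 in low-ROS CMP. The log2 fold changes of both lists had a median of 0.01. The markers of CMP were above the median signal in 8 of 8, with a median log2 fold change of 0.06. Of these, 2 were lower, Kit among them, and 6 higher. Mpo, myeloperoxidase, had 7103 ± 400.1 in high-ROS and 6822 ± 268 in low-ROS CMP, and Cd34, a surface protein of progenitors, 584 ± 231 in high-ROS and 417 ± 71.3 in low-ROS CMP. The high-ROS values of Cd34 ran from 341 to 801, and high-ROS replicate 3 was its lowest array. The part of these other cells' transcripts in the member signals was not tested.

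**Figure D3:**
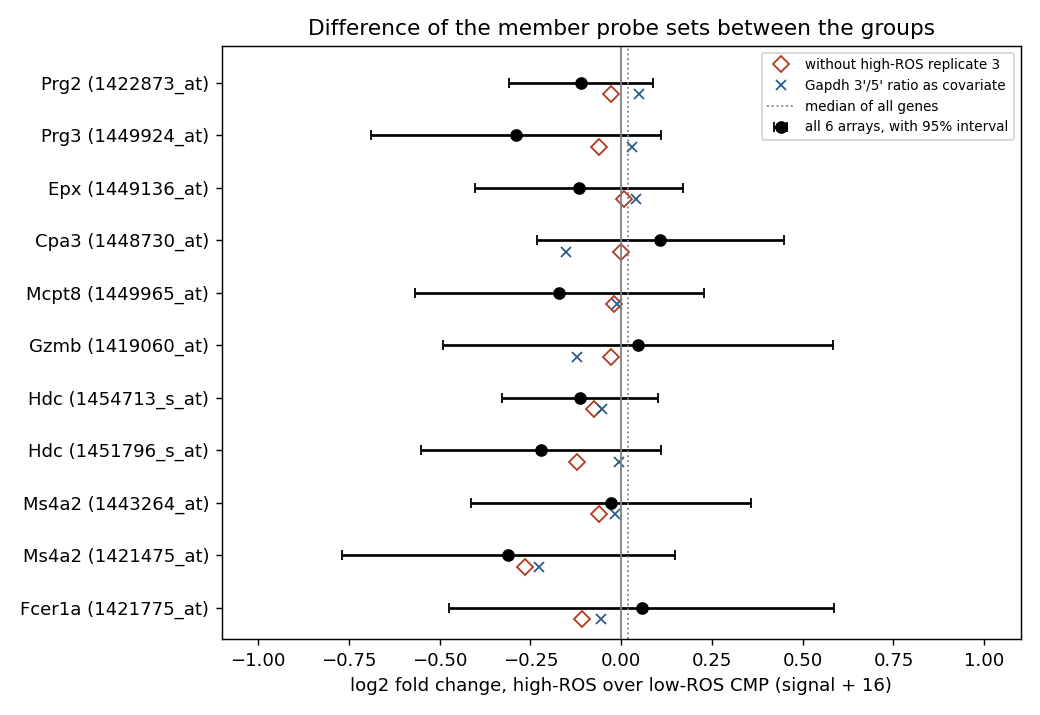
Log2 fold change of each member probe set, high-ROS over low-ROS CMP, on the log2(signal + 16) scale. Black points and bars are all 6 arrays with the 95% interval, diamonds leave out high-ROS replicate 3, crosses use the Gapdh ratio as a covariate, and the dotted line is the median of all genes. All intervals span 0, and Prg2, Prg3, Epx, Mcpt8 and Hdc lie nearer 0 in both alternatives, with the first 3 just above 0 under the covariate and Epx also without that array.

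No gene for the granule contents of basophils and mast cells passed the test. Cpa3, the mast cell carboxypeptidase that basophils and their progenitors also make, had 576, 445 and 638 in high-ROS replicates 1 to 3, against 543, 482 and 496 in low-ROS replicates 1 to 3. The 3 low-ROS values lay inside the spread of the high-ROS ones, whose SD on the log2 scale was 0.26, against 0.09 in low-ROS CMP. Its log2 fold change was 0.11 (SE 0.154, limma adjusted p = 0.899), with an interval of 0.851 to 1.36 for the ratio. Unlike Prg2, Prg3 and Epx, Cpa3 was highest on high-ROS replicate 3 and lowest on high-ROS replicate 2, and its log2 fold change was 0.00 without replicate 3 of high-ROS CMP and -0.15 with the Gapdh covariate.

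Mcpt8, a protease that in the mouse marks basophils, had 464, 346 and 288 in high-ROS replicates 1 to 3, against 377, 448 and 397 in low-ROS replicates 1 to 3. The high-ROS arrays held both its highest and its lowest value. Its log2 fold change was -0.17 (SE 0.180, limma adjusted p = 0.858), and -0.02 without high-ROS replicate 3. Gzmb, granzyme B, a protease of cytotoxic lymphocytes that mast cells and basophils can also make, had 71.8, 41.3 and 66.7 in high-ROS and 55.6, 46.6 and 68.2 in low-ROS replicates 1 to 3, near background in both, with a log2 fold change of 0.05 (SE 0.243).

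Hdc encodes histidine decarboxylase, which makes histamine. Its brighter probe set (1454713_s_at) had 1490.1, 1521 and 1384 in high-ROS replicates 1 to 3, against 1576, 1618 and 1563 in low-ROS replicates 1 to 3. Every high-ROS value lay below every low-ROS value, by a small margin at replicate 2. The log2 fold change was -0.11 (SE 0.0971, limma adjusted p = 0.816), a ratio of 0.924 with an interval of 0.796 to 1.07. The other probe set (1451796_s_at) had 502, 496 and 403 in high-ROS and 469, 593 and 579 in low-ROS replicates 1 to 3. There the groups overlapped through low-ROS replicate 1, and the log2 fold change was -0.22 (SE 0.150, limma adjusted p = 0.760). Leaving out high-ROS replicate 3 gave -0.07 and -0.12, and the Gapdh covariate -0.05 and -0.01.

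The IgE receptor genes did not pass the test either. Ms4a2, the beta chain, which amplifies the receptor's signal, had 193, 212 and 218 on its brighter probe set (1443264_at) in high-ROS replicates 1 to 3, against 182, 256 and 203 in low-ROS replicates 1 to 3. The high-ROS values lay wholly inside the low-ROS range (log2 fold change -0.03, SE 0.174, limma adjusted p = 0.980). On the other probe set (1421475_at) it had 53.7, 70.6 and 54.8 in high-ROS and 83.6, 75.8 and 73.1 in low-ROS replicates 1 to 3, without overlap and nearer the median signal. There the log2 fold change was -0.31 (SE 0.207, limma adjusted p = 0.757), so the 2 probe sets of Ms4a2 differed in size of change and neither passed.

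Fcer1a, the alpha chain that binds IgE, had 66.1, 63.95 and 98.5 in high-ROS and 54.4, 77.0 and 85.9 in low-ROS replicates 1 to 3, not far above the median signal of all probe sets. The groups overlapped over most of their range, and the log2 fold change was 0.06 (SE 0.240, limma adjusted p = 0.970). Fcer1g, the gamma chain, which other Fc receptors share, had means of 2729 ± 159 in high-ROS and 2742 ± 269 in low-ROS CMP (SD, n = 3 each). Groups that did not overlap were found for 2 of the 11 member probe sets, those of Hdc and Ms4a2 above, both lower, and for 13.2% of all probe sets, 7.21% of all being higher and 5.95% lower.

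Other genes of these lineages were read from lists, each gene by its brightest probe set, and none of those probe sets passed. Gata2 passed on its other probe set, given below. By the brightest probe set 0.0220% of all 18193 genes passed, 4 lower and 0 higher, and 7.55% had an unadjusted p under 0.05, 4.31% higher and 3.24% lower. The groups did not overlap for 13.4% of genes, 8.04% higher and 5.32% lower. In mean, 46.0% of all genes were lower, the share to set beside the counts of lower genes in each list. Of 7 measured further eosinophil genes, 5 were lower and 2 higher in mean, with a median log2 fold change of -0.04, and 0 had an unadjusted p under 0.05. Alox15 had the smallest p among them (log2 fold change -0.21, SE 0.199), and Trib1, a pseudokinase that eosinophil development needs in the mouse, had -0.10 (SE 0.207). Siglecf, an eosinophil surface lectin, had 533 ± 59.7 in high-ROS and 496 ± 112 in low-ROS CMP (SD, n = 3 each). Il5ra, the receptor for the eosinophil growth factor interleukin-5, had 162 ± 13.3 in high-ROS and 174 ± 51.5 in low-ROS CMP. Ccr3, the eotaxin receptor of mature eosinophils, lay between 101 and 147 in high-ROS and between 87.3 and 153 in low-ROS CMP.

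Of 13 measured further basophil genes, 7 were lower and 6 higher, with a median of -0.05. The smallest p was that of Ifitm1, an interferon-induced membrane protein that is not limited to basophils, at 734 ± 155 in high-ROS and 1120 ± 238 in low-ROS CMP (log2 fold change -0.60, SE 0.193, limma adjusted p = 0.641). The chemokine genes Ccl9 and Ccl4 had log2 fold changes of 0.14 (SE 0.109) and -0.14 (SE 0.178). Cd200r3, a basophil and mast cell surface receptor, stayed at 10.3 to 16.9 in high-ROS and 7.46 to 11.5 in low-ROS CMP, below the median signal. Of 13 measured further mast cell genes, 3 lay above the median signal: Kit, the stem cell factor receptor, Gzma, granzyme A, and Mitf, a transcription factor of mast cells and pigment cells. The 7 tryptases and chymases measured, among them Tpsb2, Cma1 and Mcpt4, had signals of 1.0 to 21.1 in high-ROS and 1.0 to 27.6 in low-ROS CMP, all below the median signal. Gzma had 406 ± 74.8 in high-ROS and 414 ± 91.7 in low-ROS CMP. Kit had 545 ± 19.2 in high-ROS and 642 ± 96.9 in low-ROS CMP (log2 fold change -0.22, SE 0.139), and Mitf had log2 fold changes of 0.30 (SE 0.277) and, on its other probe set, 0.69 (SE 0.259, limma adjusted p = 0.655). That other probe set of Mitf had means of 26.8 in high-ROS and 9.81 in low-ROS CMP, both below the median signal. Its groups overlapped.

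**Figure D4:**
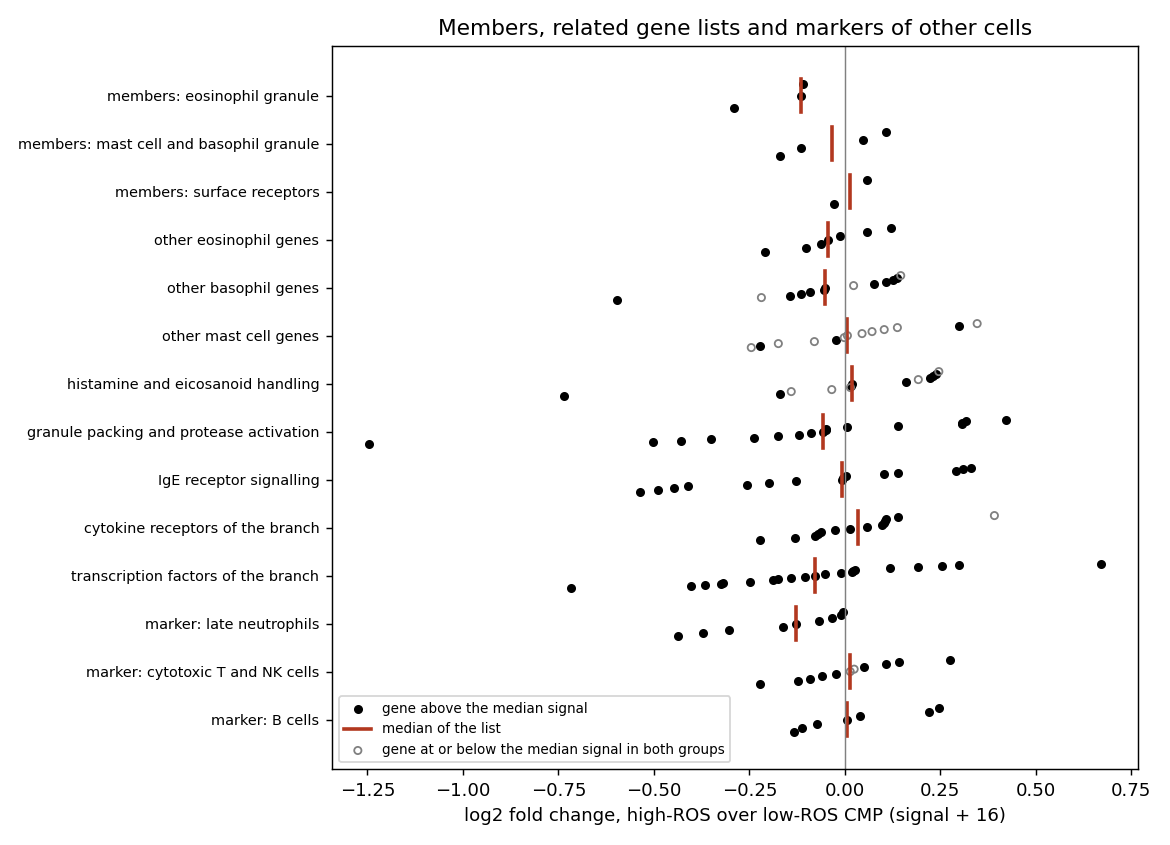
Log2 fold change, high-ROS over low-ROS CMP, of each measured gene (1 point, its brightest probe set) in the member groups, the related lists and the markers of late neutrophils, cytotoxic T and NK cells and B cells. Markers of megakaryocytes, red cells and CMP are not drawn. Red ticks are list medians, and open points are genes at or below the median signal of 41.3 in both groups. Medians of the lists shown run from -0.13 (late neutrophils) to 0.04 (cytokine receptors), and Rab27b, Slc18a2, Gata2 and Irf8 lie farthest out among the genes drawn.

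Some genes that load and pack granules had wider differences, none of which passed. Slc18a2, the vesicular monoamine transporter that loads histamine into granules and serves platelets and neurons as well, had 302 ± 17.2 in high-ROS and 517 ± 78.9 in low-ROS CMP (SD, n = 3 each; log2 fold change -0.74, SE 0.150, limma adjusted p = 0.288). Its groups did not overlap. In the list of histamine and eicosanoid genes 4 of 13 were lower and 9 higher, with a median of 0.02. Alox5, which starts leukotriene synthesis, had 0.24 (SE 0.164), and Hrh2, a histamine receptor near background, 0.23 (SE 0.227). Srgn, serglycin, the proteoglycan to which granule proteases bind, had 4583 ± 112 in high-ROS and 4878 ± 212 in low-ROS CMP. Among 17 granule packing genes 11 were lower and 6 higher, with a median of -0.06, and 4 lower and 2 higher at an unadjusted p under 0.05. Rab27b, a small GTPase of mast cell and platelet granules, had 38.3 ± 19.6 in high-ROS, near background, and 108 ± 7.96 in low-ROS CMP (log2 fold change -1.25, SE 0.263, limma adjusted p = 0.317). Cst7, a cystatin of granules, had 568 ± 58.4 in high-ROS and 419 ± 21.7 in low-ROS CMP. Pf4, a platelet chemokine, had 666 ± 116 in high-ROS and 1107 ± 41.6 in low-ROS CMP, and the part of megakaryocytic cells in the values of Slc18a2 and Rab27b was not tested. Of the megakaryocyte and platelet markers, Pf4 among them, 5 of 8 lay above the median signal. The list, with Pf4 in it, summed to 1479 to 1708 in high-ROS and 2140.0 to 2228 in low-ROS CMP. Red cell markers summed to 7092 to 8400 in high-ROS and 9009 to 9152 in low-ROS CMP, also without overlap. The medians were -0.22 for the megakaryocyte and platelet list, 6 of 8 lower, and -0.13 for red cell markers, 5 of 6 lower.

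In the IgE receptor signalling list 9 of 15 were lower and 6 higher, with a median of -0.01. Lat, an adaptor that the receptor's kinases phosphorylate, had 94.6 ± 19.1 in high-ROS and 143 ± 1.66 in low-ROS CMP (log2 fold change -0.54, SE 0.198), and Plcg1, a phospholipase it recruits, -0.41 (SE 0.162). Inpp5d, the phosphatase SHIP1, which restrains the signal, had 0.31 (SE 0.124), and the limma adjusted p of all 3 was 0.655. Of 14 cytokine receptors 6 were lower and 8 higher, with a median of 0.04. Csf2rb, the chain shared by the receptors for interleukin-3, interleukin-5 and GM-CSF, had 1082 ± 52.5 in high-ROS and 1039 ± 33.7 in low-ROS CMP on its brighter probe set. Its other probe set gave a log2 fold change of -0.37 (SE 0.187). Il18r1, a chain of the interleukin-18 receptor, had 0.11 (SE 0.141), and Csf2ra, the GM-CSF receptor alpha chain, -0.13 (SE 0.183).

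Among 21 transcription factors of these lineages 13 were lower and 8 higher, with a median of -0.08. Gata2, which basophils, mast cells, stem cells and early megakaryocytes need, had 291 ± 49.2 in high-ROS and 484 ± 11.3 in low-ROS CMP on its brighter probe set (log2 fold change -0.72, SE 0.156, limma adjusted p = 0.352). On its other probe set it fell by 1.48 on the log2 scale (SE 0.158, limma adjusted p = 0.0154), one of the 7 probe sets called. Irf8, a factor of monocytes and dendritic cells that basophils also use, had 1026 ± 226 in high-ROS and 631 ± 92.0 in low-ROS CMP (log2 fold change 0.67, SE 0.174, limma adjusted p = 0.529), and 0.25 (SE 0.230) on its other probe set. For Lmo2, a partner of GATA factors, the value was -0.40 (SE 0.193), for Gata1 -0.32 (SE 0.209) and for Cebpa, a granulocyte factor, 0.03 (SE 0.163). Cebpe, a factor of late granulocytes, is not analysed here. The 4 members with GATA letters in their windows had log2 fold changes of -0.29 for Prg3, 0.11 for Cpa3, -0.03 and -0.31 for Ms4a2 and 0.06 for Fcer1a. Members whose windows lacked them had -0.12 for Epx, -0.17 for Mcpt8, -0.11 and -0.22 for Hdc and 0.05 for Gzmb. A link between the letters and the differences was not tested.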

How the data were processed

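The values the authors deposited are 1 linear intensity per probe set and array, from 1-colour arrays hybridised with biotin-labelled, amplified cDNA, per the labels' protocols. How the probes were summarised and the arrays scaled is not given in the labels or headers read. Array medians were 40.3 to 42.4 and trimmed means (2% per tail) 181 to 198. No detection call was used, so "near background" means near the median signal of 41.3. Precision is limited by having 6 arrays.

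The platform annotation names 1 gene for 34945 of the 45101 probe sets, several for 932 and none here for 9160, and 64 are controls. The 34945 were fitted as log2(signal + 16), high-ROS minus low-ROS, with limma 3.58.1 in R 4.3.3 (lmFit, eBayes with a trend, 2-sided, 10.7 degrees of freedom) and Benjamini-Hochberg adjustment over all of them, at a threshold of 0.05. Because 16 was added first, ratios of dim genes are understated. With 3 arrays a group, exact permutation could reach no p below 0.1, and none is given. Steps were tested on simulated data.

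The members and lists were chosen with earlier results of these data known. Named by rule are all members, the 3 genes of each related list with the smallest p among those above the median signal in at least 1 group, and always Gata1, Gata2, Cebpa, Cebpe, Irf8, Il5ra, Fcer1g, Csf2rb, Kit, Mitf, Srgn, Cd34 and Mpo. Of the markers of other cells, only some of those the rule allows are named. Ear3, Ccr3, Cd200r3, Xbp1, S100a8, S100a9, Ltf, Snap23, Stxbp2, Ctsg and the tryptases and chymases were named after their values were seen. Alternatives were pseudocounts of 1 and 64, quantile normalization, median centring, a filter on dim probe sets, no trend, array weights, 1 probe set per gene, every non-control probe set, the replicate number as a block, the Gapdh ratio as a covariate, leaving out each array and an adjusted p under 0.1. Python 3.11.15 with matplotlib 3.10.9 drew the plots.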

Additional observations from a re-analysis of the deposited data

How the results depend on the processing

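No member probe set, and no gene of the related lists by its brightest probe set, passed in any of the 18 alternatives (limma, 0 in each). The other probe set of Gata2, outside that count, passed with all arrays. Over the alternatives the smallest adjusted p of a member was 0.504. In 6 of the alternatives the log2 fold changes of the members are unchanged by construction. Of the 132 member values in the others, 116 kept their sign and 16 changed it. With the Gapdh covariate the log2 fold changes were 0.0493 for Prg2, 0.0294 for Prg3, 0.0404 for Epx, -0.15 for Cpa3, -0.12 for Gzmb and -0.0544 for Fcer1a. Without high-ROS replicate 3 they were 0.00843 for Epx, -0.00027 for Cpa3, -0.03 for Gzmb and -0.11 for Fcer1a. Gzmb ranged from -0.0701 to 0.24 over the arrays left out, Fcer1a from -0.11 to 0.17, Ms4a2 (1443264_at) from -0.13 to 0.0999, Cpa3 up to 0.25 and Epx down to -0.21, and Fcer1a was -0.10 with array weights. The members' median, -0.11, was -0.0157 with the Gapdh covariate and -0.14 to -0.0280 over the arrays left out. The cause was not tested.

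Over all probe sets the calls, 0 higher and 7 lower, were 1 higher with quantile normalization, median centring or every non-control probe set, and 3 higher with 1 probe set per gene. They were 7 higher and 15 lower with only probe sets above the median signal, 10 and 21 with array weights, 5 and 13 at an adjusted p under 0.1, 0 lower without a trend and 4 lower with the Gapdh covariate. Leaving out an array gave 1 to 6 lower (1 without high-ROS replicate 1 or any 1 of the low-ROS replicates). With the replicate block 3 were lower and no member passed (Prg3 log2 fold change -0.29, SE 0.114, limma unadjusted p = 0.0331, adjusted p = 0.585). That was the only member value at an unadjusted p under 0.05 in any alternative. The replicate numbers share no stated source, and same-numbered arrays correlated at 0.14, 0.09 and -0.04 in their deviations from the group means, and high-ROS replicate 2 correlated best with low-ROS replicate 3, at 0.12. Dim probe sets, those of Gzmb, Fcer1a and 1 of Ms4a2, gave the widest intervals.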

Other observations

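Genes of the vesicle fusion machinery that releases granules were singled out with their values in view. They come from the list of 17 granule packing genes, of which 11 were lower and 6 higher, with a median of -0.06. Of all genes 46.0% were lower. Vamp8, a vesicle SNARE, had 1700 ± 254 in high-ROS and 2157 ± 89.4 in low-ROS CMP (SD, n = 3 each; log2 fold change -0.35, SE 0.121). Snap23, its partner at the plasma membrane, was at -0.43 (SE 0.156) on that scale, and Stxbp2, a syntaxin-binding protein needed for granule release, -0.50 (SE 0.191). The limma adjusted p of these genes was 0.647 to 0.655, and all 3 were lowest on high-ROS replicate 3. Without that array the values were -0.22, -0.22 and -0.28, and under the Gapdh covariate -0.13, -0.15 and -0.26. Ctsg, cathepsin G, a protease of neutrophil and mast cell granules, was 0.31 (SE 0.106), 0.36 without that array and 0.49 with the covariate (adjusted p = 0.647 with all arrays).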
